A study of Mus musculus with 6 samples.

Results

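The genes described here are 53 mouse genes of mitosis and the kinetochore, taken by gene symbol from a named list, out of 17890 genes in the deposited table. They were measured by RNA sequencing of mast cells isolated from lymph nodes of mice. The mast cells came from nodes with tumour metastasis (mLN, 3 libraries) or from nodes free of it (uLN, 3 libraries). The labels give both groups the same tissue, lymph node, and no strain, age, tumour type, sort or number of animals per library. Nor do they state whether the uninvolved nodes came from tumour-bearing mice. Nothing says that the replicates came from separate animals, so the spread that p-values measure here may be technical.

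Cells enter mitosis when the kinase Cdk1 binds a B-type cyclin. Chromosomes are then compacted by condensin and topoisomerase II, and each centromere, marked by the histone variant Cenpa, builds a kinetochore that binds spindle microtubules. A checkpoint holds the cell until every kinetochore is attached, after which the anaphase-promoting complex, switched on by Cdc20, has securin and cyclin B destroyed. Many of these genes are transcribed together late in the cell cycle by the MuvB complex with B-Myb and Foxm1, and are held down in resting cells by MuvB in the DREAM complex. Mast cells of tissues are long-lived and divide rarely, and the Kit receptor drives their growth. Several of the proteins, such as Bub3 and the Smc proteins, also have work outside mitosis and are made in resting cells.

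The 53 genes did not move as a unit. In mLN mast cells 18 rose and 9 fell, and the other 19 of the 46 tested were not called. The share called was 58.7%, against 67.4% of all tested genes. Of all tested genes 33.2% rose and 34.2% fell, so changes in both directions were common throughout. The largest rises were in Anln, Cenpa, Top2a, Bub1b, Ncapg, Cdk1 and Ncaph, and the largest falls in Ndc80, Cenpt, Foxm1, Cenpk and Smc2. Ndc80 and Cenpk had 8 reads or fewer in each mLN library, so the sizes of their falls are uncertain. Some genes whose protein products work as partners in the same complex moved in opposite directions, such as Smc2 (lower) and Smc4 (higher, by 1.35-fold) of condensin. Common markers of dividing cells did not move together either. Mki67, Plk1, Aurkb and Birc5 were not called different, while Top2a, Cdk1 and Ccnb1 rose and Ube2c fell. The Ccnb1 call was lost in 5 of the fits that left out 1 library. Ube2c shares exon sequence with a neighbouring gene, so its values are uncertain.

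Reads in the text are the estimated counts rounded to whole numbers, and CPM is the count scaled to the library size after TMM normalisation. A call is an adjusted p under 0.05 from the quasi-likelihood test of edgeR, with Benjamini and Hochberg's adjustment over 12706 tested genes. By that rule 27 of 46 members, or 58.7%, were called, against 67.4% of all tested genes. Of all tested genes 33.2% were called higher and 34.2% lower. Calls depend on depth, and most of these genes were thinly covered. Of the 32 members with a mean under 5 CPM, 50% were called, against 44.1% of all tested genes of that level, and of the 14 others 78.6%, against 73.9%. The shares called were thus near the background at each level.

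The sizes of the changes can be set against the background in the same way. Called changes of at least 1.5-fold were found for 15 members that rose and 8 that fell, together 50% of the 46, against 32.5% of all tested genes. Those 2 shares are not matched for level, and thinly covered genes had larger changes. A log2 change of at least 1 in size was found for 37.5% of members under 5 CPM, against 31.5% of tested genes of that level. For genes of at least 5 CPM it was 42.9% of members, or 6 of 14, against 11.8%. Of these members Cenpt, Prc1 and Top2a were under 5 CPM in the group where they were lower. They passed that cut on the mean only through the other group, and so few genes make the share uncertain. The median log2 change of the members was 0.19, against -0.01 over all tested genes, and the median size without sign was 0.66 against 0.40. Among members under 5 CPM that median size was 0.69, against 0.61 for all tested genes of that level. Among the 14 members of at least 5 CPM it was 0.56, against 0.37. Libraries of the 2 groups did not overlap for 33 members, or 71.7%, against 72.9% of all tested genes.

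**Figure D1:**
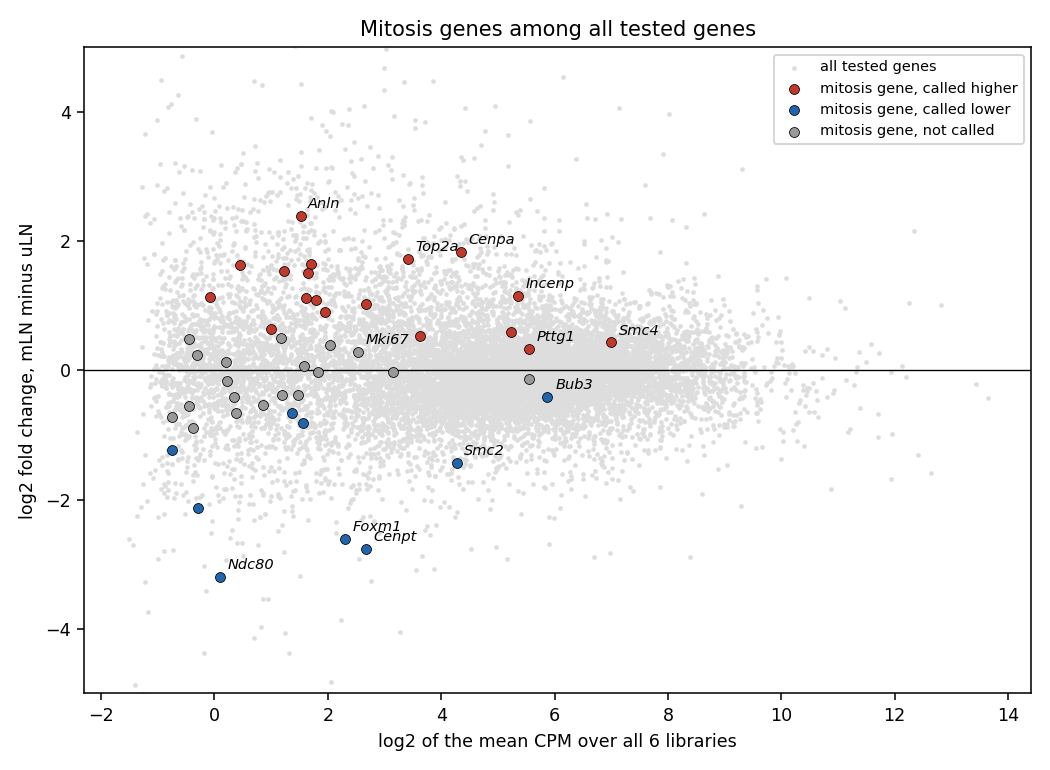
Each point is a gene, with the log2 of its mean CPM over all 6 libraries across and the log2 fold change of mLN minus uLN up. The mitosis genes, coloured by call, lie mostly at low levels and on both sides of 0 among the grey points of all tested genes, and 14 grey points lie outside the plotted range.

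The libraries held 17643916 to 17799420 estimated counts each. Reads of 10 mast cell markers added up to 721865 to 759380 per library in mLN and 730612 to 748979 in uLN, so the markers of the labelled cell type were abundant in each library. Singly, 3 of the 10 were called higher and 5 lower, beside 33.2% and 34.2% of all tested genes. Summed reads of B cell markers were 1678 to 2047 in mLN and 1193 to 1253 in uLN, and nearly all were of Bcl6, which rose (1699, 1651 and 2028 reads in mLN and 1210, 1181 and 1157 in uLN), while Cr2 fell. The B cell genes Cd79a, Ms4a1 and Pax5 had 0 to 9 reads in any library. Summed T cell markers were 47 to 62 in mLN and 78 to 91 in uLN, with Cd4 lower and Cd3d at 1 to 8 reads in any library. Summed reads of 8 macrophage markers were 2804 to 3049 in mLN and 1180 to 1555 in uLN, with 2 of 7 tested markers higher and 5 lower. The sums were also apart for dendritic cell markers (264 to 310 in mLN and 160 to 186 in uLN), endothelial markers (13348 to 14165 in mLN and 15735 to 16268 in uLN) and melanocytic markers (2894 to 2949 in mLN and 4033 to 4249 in uLN). Most of the dendritic reads were of Itgax, the endothelial of Pecam1 and Vwf, and the melanocytic of Mitf. The part of these marker lists in the results was not tested. Epithelial and stromal markers stood out in mLN replicate 1, which had 2877 epithelial reads while the other mLN libraries had 291 and 611 and uLN libraries 140 to 307. Stromal reads were 1974 there, 229 and 456 in the other mLN libraries, and 89 to 248 in uLN. Without mLN replicate 1, each of the 27 member calls was kept. The libraries of mLN also differed more among themselves than those of uLN, with a biological coefficient of variation, estimated by edgeR within each group, of 9.12% against 2.94%. Replicate 3 of mLN stood apart, with a mean chi-square per gene of 11.1 and 11.4 against the other mLN libraries, which differed from each other by 3.77, while uLN pairs differed by 2.06 to 2.91. Without it 26 of the 27 member calls were kept, and Ccnb1 was lost. In whole-population RNA, fewer dividing cells and less RNA per dividing cell cannot be told apart.

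The proximal promoters of these genes share sequence features that the list did not use. A promoter window from RefSeq (GRCm38.p6), from 250 bases before to 50 after a transcription start, was on hand for 44 of the 53 genes. The cell cycle homology region (CHR), to which MuvB binds, was searched as TTTGAA or TTCGAA and the box of the factor NF-Y as CCAAT, both on either strand. TTCGAA reads the same on both strands, and a CHR match can share an end base with a CCAAT match. The CHR letters were in 32 of 44 genes, or 72.7%, against 21.7% of 27025 genes with a promoter. CCAAT was in 34, or 77.3%, against 41.1%, and both were in 29, or 65.9%, against 9.65%. Of the CHR matches in these genes 66.0% began within 50 bases of the start on either side, against 25.2% of those in all promoters. Of the CCAAT matches 32.1% did, against 28.2% in all promoters. A few genes (Bub3, Cenpk, Ect2 and Prc1) have matches in more than 1 window, and a match was counted in each window that holds it. Genes of either direction held them, as the CHR letters were in 11 of 15 genes that rose, 5 of 8 that fell and 11 of 15 that were not called. A match is a description of the letters and not proof of a bound site.

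Below are the 150 bases before the start for 6 genes, chosen to set genes that rose (Cdk1, Top2a, Cenpa) beside genes that fell (Ube2c, Smc2, Ndc80). They are written 5′ to 3′ on the gene's own strand, with CHR and CCAAT letters on either strand in capitals.
Cdk1 (chr10:69352913-69353062, minus strand): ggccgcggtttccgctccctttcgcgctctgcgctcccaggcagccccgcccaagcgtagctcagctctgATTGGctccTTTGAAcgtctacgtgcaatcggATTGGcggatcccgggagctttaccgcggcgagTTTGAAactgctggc
Top2a (chr11:99024190-99024339, minus strand): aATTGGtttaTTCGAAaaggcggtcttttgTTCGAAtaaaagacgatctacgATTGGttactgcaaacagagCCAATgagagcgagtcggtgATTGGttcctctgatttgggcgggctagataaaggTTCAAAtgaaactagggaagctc
Cenpa (chr5:30666736-30666885, plus strand): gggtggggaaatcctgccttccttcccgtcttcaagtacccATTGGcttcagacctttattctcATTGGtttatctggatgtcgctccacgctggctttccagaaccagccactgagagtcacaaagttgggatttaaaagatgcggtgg
Ube2c (chr2:164769779-164769928, plus strand): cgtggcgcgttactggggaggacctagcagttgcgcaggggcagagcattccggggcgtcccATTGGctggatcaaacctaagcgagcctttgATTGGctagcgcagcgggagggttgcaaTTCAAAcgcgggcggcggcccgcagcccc
Smc2 (chr4:52439071-52439220, plus strand): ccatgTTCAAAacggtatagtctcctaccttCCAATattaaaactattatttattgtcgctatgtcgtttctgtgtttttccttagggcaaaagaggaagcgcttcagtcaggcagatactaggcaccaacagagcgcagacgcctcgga
Ndc80 (chr17:71526858-71527007, minus strand): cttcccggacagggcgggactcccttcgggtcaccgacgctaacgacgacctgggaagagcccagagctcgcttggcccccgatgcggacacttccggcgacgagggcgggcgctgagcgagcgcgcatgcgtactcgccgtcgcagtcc
Cdk1 holds 2 CHR and 2 CCAAT matches in this stretch and Top2a 3 and 4. Ube2c, which fell, holds 1 and 2, and Smc2, which also fell, holds 1 of each. Cenpa holds 2 CCAAT matches and no CHR match before its start. Ndc80 holds neither in this stretch. Of genes not printed, Anln, which rose, and Cenpt, which fell, also hold neither in the 150 bases before the start.

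**Figure D2:**
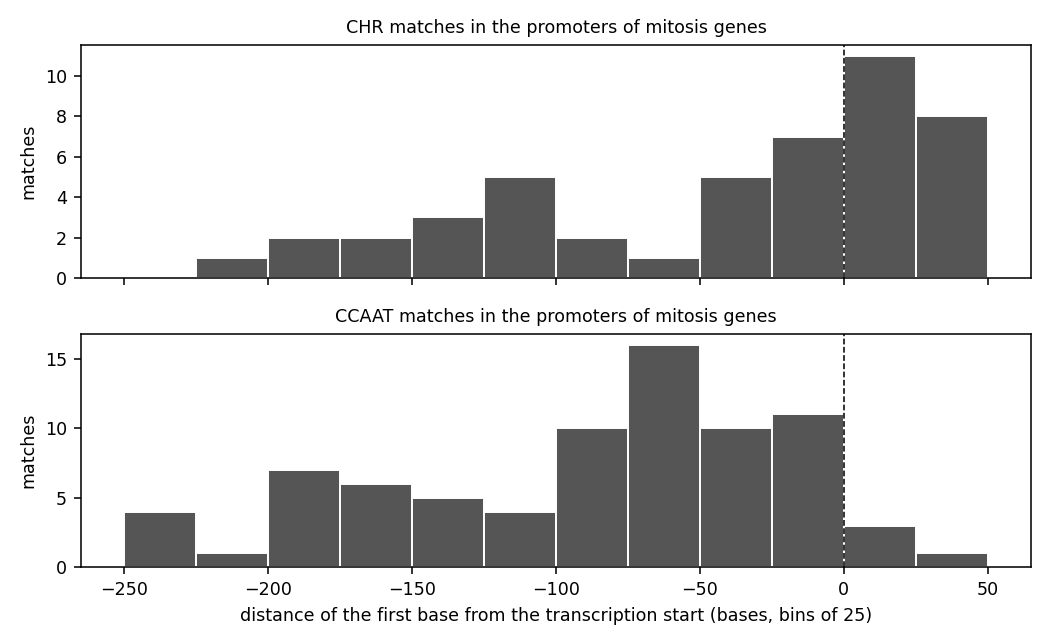
The bars count CHR matches (upper panel) and CCAAT matches (lower panel) by distance of their first base from the transcription start, in bins of 25 bases, over the promoters of 44 mitosis genes. Of the CHR matches 31 of 47 began within 50 bases of the start on either side, and of the CCAAT matches 25 of 78, close to the 28.2% in all promoters.

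Among the cyclins, kinases and phosphatases of mitotic entry, 3 of 7 tested genes rose and 0 fell. This count and those by role below stand beside 33.2% of all tested genes called higher and 34.2% lower. Cdk1, the kinase that starts mitosis, had 64, 56 and 67 reads in mLN and 27, 20 and 16 in uLN. Each mLN library was above each uLN library. Cdk1 has gene ID 12534 and spans bases 69335146 to 69352912 of chromosome 10 in GRCm38.p6. Its level was 3.49 ± 0.367 CPM in mLN and 1.20 ± 0.320 in uLN (SD, n = 3 each), a log2 change of 1.54 ± 0.24 (SE, adjusted p = 0.000233 in the edgeR test). Cdc25b, a phosphatase that removes inhibitory phosphates from Cdk1, had 77, 94 and 81 reads in mLN against 42, 39 and 35 in uLN, a 2.13-fold rise.

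Ccnb1, the main B-type cyclin partner of Cdk1, had 40, 43 and 48 reads in mLN and 22, 30 and 30 in uLN. The groups were apart, but the 1.56-fold rise (adjusted p = 0.0284 in the edgeR test) was not called without any of 5 of the 6 libraries in turn, with adjusted p from 0.0501 to 0.121, nor in DESeq2 (adjusted p = 0.0777). Without mLN replicate 1 it was called. Ccnb2, the other B-type cyclin, had 11, 9 and 4 reads in mLN and 15, 11 and 13 in uLN and was not called. Plk1, a kinase that acts at centrosomes and kinetochores, had 75, 63 and 51 reads in mLN and 62, 55 and 72 in uLN. Its groups overlapped, with a log2 change of -0.03 ± 0.20 (SE). Ccna2, the cyclin of late S phase and early mitosis, averaged 0.878 ± 0.337 CPM in mLN and 0.742 ± 0.0951 in uLN (SD, n = 3 each), and was not called. Aurka, a kinase of centrosome maturation, averaged 1.08 CPM in mLN and 1.45 in uLN. Its libraries did not overlap between groups, but it was not called. Cdc25c, the sister phosphatase of Cdc25b, had 4, 3 and 5 reads in mLN and 2, 1 and 1 in uLN and was too low to be tested.

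**Figure D3:**
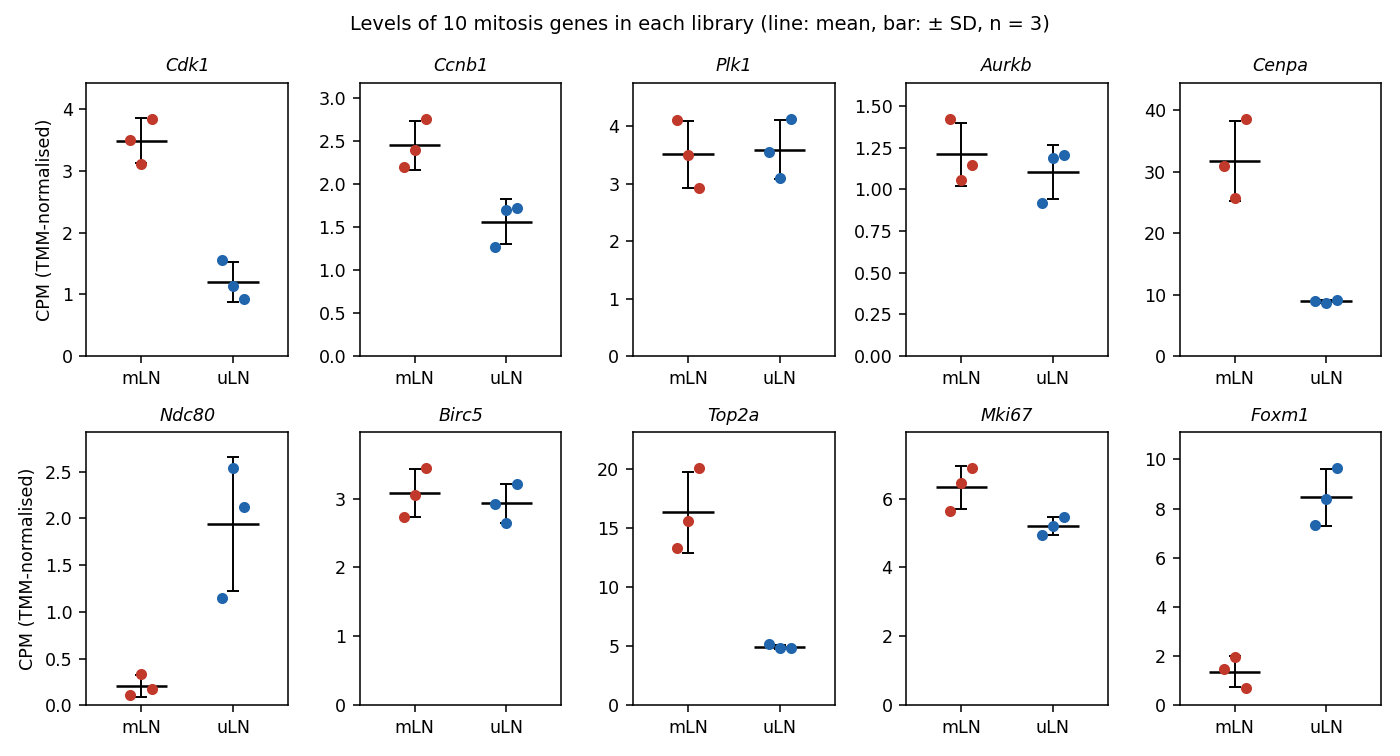
Each panel shows the CPM of a gene in 3 mLN libraries (left) and 3 uLN libraries (right), with a line at the mean and a bar of ± 1 SD. Cdk1, Ccnb1, Cenpa, Top2a and Mki67 (not called) lie higher in each mLN library. Ndc80 and Foxm1 lie lower, and Plk1, Aurkb and Birc5 overlap between groups.

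Foxm1, the factor that drives transcription of many genes of this list, was among those that fell most. It had 27, 35 and 12 reads in mLN and 128, 149 and 168 in uLN. The highest mLN library was far below the lowest uLN library. The level was 1.37 ± 0.635 CPM in mLN and 8.47 ± 1.16 in uLN (SD, n = 3 each), a log2 change of -2.61 ± 0.27 (SE, adjusted p = 1.24e-05 in the edgeR test). Foxm1 has gene ID 14235 and spans bases 128362994 to 128375886 of chromosome 6. Leaving out 1 library at a time moved the log2 change between -2.95 and -2.30. Foxm1 fell 6.13-fold in the same libraries in which Cdk1, Cenpa and Top2a rose. In those libraries Ube2c and Cenpe fell, and Plk1, Ccnb2, Cdc20, Aurkb and Birc5 were not called. Whether Foxm1 has a part in any of these changes was not tested.

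Of spindle checkpoint and anaphase genes 3 of 7 tested rose and 2 fell. Bub1b, the BubR1 subunit of the mitotic checkpoint complex, had 90, 92 and 82 reads in mLN against 17, 32 and 33 in uLN, with the groups well apart. That made 4.92 ± 0.204 CPM in mLN and 1.56 ± 0.508 in uLN (SD, n = 3 each), a 3.14-fold rise (adjusted p = 0.000132 in the edgeR test). That complex also holds Mad2l1, Bub3 and Cdc20. Mad2l1, the checkpoint protein Mad2, rose 1.45-fold to 14.7 ± 1.47 CPM in mLN libraries, against 10.1 ± 0.313 in uLN libraries (SD, n = 3 each). Bub3, which carries Bub1b to kinetochores, fell 1.33-fold, with 50.3 ± 3.08 CPM in mLN and 66.9 ± 3.18 in uLN (SD, n = 3 each).

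Ube2c, the enzyme that supplies ubiquitin to the anaphase-promoting complex, had 43, 38 and 34 reads in mLN and 72, 70 and 57 in uLN. It fell 1.76-fold (adjusted p = 0.00352 in the edgeR test). Cdc20, the activator of the anaphase-promoting complex, which the checkpoint inhibits, had 22, 20 and 12 reads in mLN and 25, 38 and 21 in uLN and was not called (log2 change of -0.66 ± 0.32, SE). Pttg1, or securin, which restrains separase, was abundant and rose 1.26-fold, with 52.0 ± 1.62 CPM in mLN and 41.3 ± 2.28 in uLN (SD, n = 3 each). Espl1, the separase that cuts cohesin, averaged 1.47 CPM in mLN and 2.13 in uLN and was not called, though it was without mLN replicate 2 (adjusted p = 0.0394 in the edgeR test). The checkpoint kinases Bub1 and Ttk had 1 to 3 and 2 to 11 reads per library over both groups and were not tested.

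The largest changes in opposite directions were at the centromere and kinetochore, where 3 of 10 tested genes rose and 4 fell. Cenpa, the histone H3 variant that marks centromeres, had 565, 463 and 673 reads in mLN and 157, 152 and 159 in uLN. The uLN libraries were close together and the mLN libraries were spread, all above them. The level was 31.8 ± 6.49 CPM in mLN and 8.90 ± 0.290 in uLN (SD, n = 3 each), a log2 change of 1.83 ± 0.14 (SE, adjusted p = 1.28e-06 in the edgeR test). Cenpa has gene ID 12615 and spans bases 30666877 to 30674837 of chromosome 5. Cenpn, which binds Cenpa nucleosomes, had 88, 82 and 55 reads in mLN and 39, 36 and 26 in uLN, a 2.17-fold rise.

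Cenpt, which binds centromeric DNA and recruits the Ndc80 complex, had 47, 30 and 11 reads in mLN and 203, 194 and 189 in uLN. It was low in every mLN library and lowest in mLN replicate 3. The level was 1.62 ± 0.972 CPM in mLN and 11.1 ± 0.426 in uLN (SD, n = 3 each), a log2 change of -2.76 ± 0.30 (SE, adjusted p = 1.67e-05 in the edgeR test). Cenpt has gene ID 320394 and spans bases 105844669 to 105855086 of chromosome 8. Cenpk, a further subunit of the inner kinetochore network, had 5, 8 and 3 reads in mLN and 22, 26 and 22 in uLN, a 4.39-fold fall. Cenpe, the kinesin that brings chromosomes to the spindle equator, had 6, 8 and 5 reads in mLN and 18, 12 and 14 in uLN, a 2.34-fold fall (adjusted p = 0.0135 in the edgeR test). That call was lost without uLN replicate 1 (adjusted p = 0.0640) and in DESeq2 (adjusted p = 0.0758). Cenpk and Cenpe had 8 reads or fewer in each mLN library and passed the expression filter only through uLN, so the sizes of their falls are uncertain. Cenph, which sits with Cenpk in the inner kinetochore, had 8 to 14 reads in mLN and 9 to 20 in uLN and was not called. Cenpf, Cenpi and Cenpm had at most 15 reads in any library and were not tested, and Cenpf had 12, 10 and 15 reads in mLN against 3, 6 and 6 in uLN.

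The 4 subunits of the Ndc80 complex, the rod that grips microtubules at the outer kinetochore, showed unequal changes. Ndc80 itself had 2, 6 and 3 reads in mLN and 20, 45 and 37 in uLN. Its fall was the largest of the list, a log2 change of -3.20 ± 0.47 (SE, adjusted p = 0.000137 in the edgeR test). It stayed between -3.73 and -2.90 when 1 library at a time was left out. With 6 reads or fewer in each mLN library, Ndc80 passed the expression filter only through uLN, and the size of its fall is uncertain. Ndc80 has gene ID 67052 and spans bases 71496100 to 71526857 of chromosome 17. Nuf2, its direct partner, had 16, 8 and 5 reads in mLN and 20, 17 and 16 in uLN. Nuf2 was not called (log2 change of -0.89 ± 0.40, SE) but was without mLN replicate 1 (log2 change of -1.44, adjusted p = 0.0128) and with limma-voom (adjusted p = 0.0427). Of the pair at the inner end, Spc24 had 32, 35 and 39 reads in mLN and 39, 53 and 43 in uLN and was not called. Spc25 had 16, 32 and 22 reads in mLN and 7, 14 and 10 in uLN, a 2.20-fold rise (adjusted p = 0.0204 in the edgeR test). Its call was lost without mLN replicate 2, uLN replicate 1 or uLN replicate 3 (adjusted p = 0.104, 0.0889 and 0.0655).

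**Figure D4:**
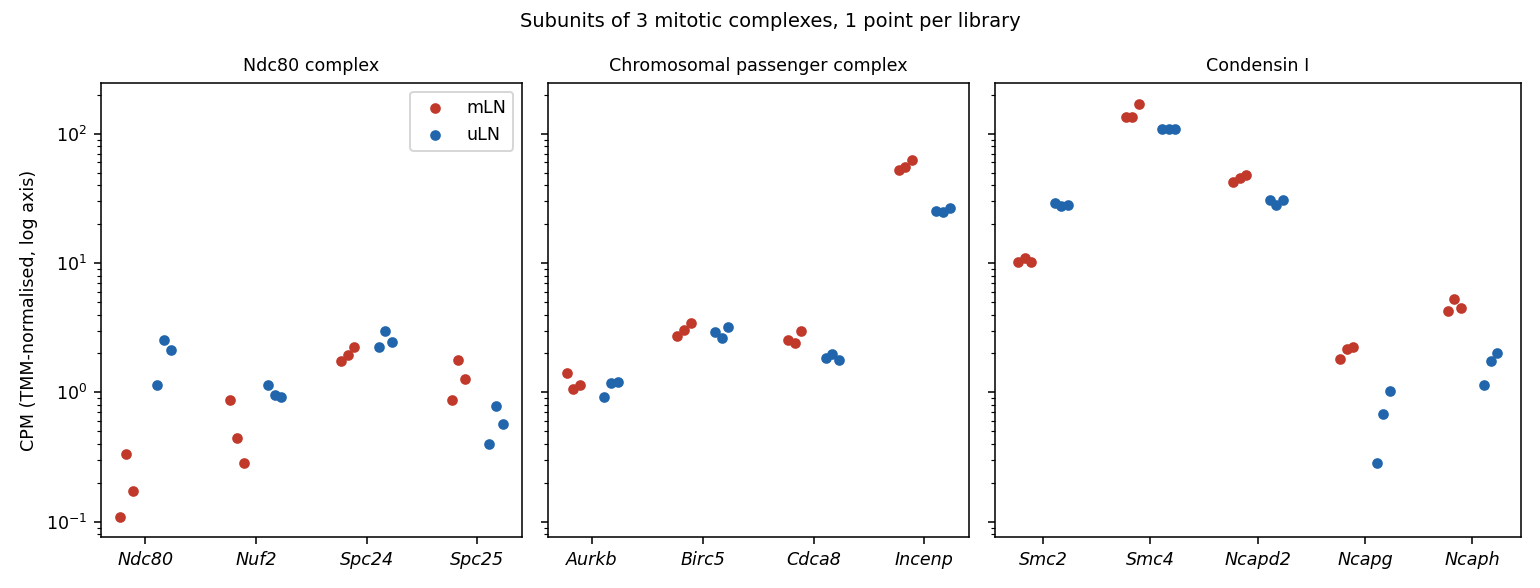
Points give the CPM of each library on a log axis for subunits of the Ndc80 complex, the chromosomal passenger complex and condensin I, with mLN left of uLN for each gene. Ndc80 and Smc2 lie lower in mLN while Spc25, Incenp, Smc4, Ncapd2, Ncapg and Ncaph lie higher.

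In the chromosomal passenger complex, which corrects faulty attachments, 1 of 4 genes rose and 0 fell. Incenp, the scaffold of the complex, had 959, 991 and 1086 reads in mLN and 439, 438 and 460 in uLN. It was the most abundant of the 4 and its groups were wide apart, at 56.7 ± 5.09 CPM in mLN and 25.4 ± 0.885 in uLN (SD, n = 3 each), a log2 change of 1.15 ± 0.07 (SE, adjusted p = 4.00e-07 in the edgeR test). Aurkb, its kinase, had 26, 19 and 20 reads in mLN and 16, 21 and 21 in uLN, a log2 change of 0.13 ± 0.27 (SE). Birc5, or survivin, had 50, 55 and 60 reads in mLN and 51, 47 and 56 in uLN, a log2 change of 0.07 ± 0.19 (SE). The groups overlapped for both genes. Cdca8, or borealin, had 46, 43 and 52 reads in mLN and 32, 35 and 31 in uLN and just missed the threshold (adjusted p = 0.0539 in the edgeR test). It passed under each of the other 3 scalings (adjusted p from 0.0433 to 0.0489).

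Per kilobase of exon, the scaffold stood far above its partners. Incenp had 17.4 ± 1.57 CPM per kilobase in mLN and 7.83 ± 0.273 in uLN (SD, n = 3 each). Aurkb had 0.619 in mLN and 0.564 in uLN, and Birc5 had 0.905 and Cdca8 1.40 in mLN. On that scale the most abundant genes of the list in mLN were Smc4 (34.1 ± 4.66), Pttg1 (29.4 ± 0.915), Cenpa (19.4 ± 3.95) and Incenp, followed by Kif23 (13.1 ± 1.24) and Bub3 (11.2 ± 0.687). Cenpa and Incenp differed there by less than the spread of Cenpa between its libraries. In uLN libraries Cenpa had 5.43 ± 0.177 per kilobase and Smc4 had 25.3 ± 0.103. Mki67, a protein of the chromosome surface, had 0.629 ± 0.0629 in mLN and 0.516 ± 0.0262 in uLN.

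Among spindle motors and spindle proteins 1 of 5 tested genes rose and 1 fell. Tpx2, which activates Aurka on the spindle, had 80, 87 and 104 reads in mLN and 43, 58 and 41 in uLN, a 1.87-fold rise (adjusted p = 0.00217 in the edgeR test). Kif22, a motor that pushes chromosome arms, had 35, 41 and 32 reads in mLN and 55, 54 and 58 in uLN, a 1.58-fold fall. Kif11, the motor that parts the spindle poles, averaged 4.64 ± 1.37 CPM in mLN and 3.54 ± 0.400 in uLN (SD, n = 3 each). It was highest in mLN replicate 3 and not called, except without mLN replicate 1 (adjusted p = 0.0483 in the edgeR test). Kif18a and Kif2c, which shorten microtubules, were not called (log2 changes of -0.38 and 0.49). Kif4, a chromosome-bound motor, had 2 to 8 reads per library and was not tested.

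Of cytokinesis genes 2 of 5 rose and 0 fell. Anln, the anillin that scaffolds the contractile ring, had 77, 93 and 88 reads in mLN and 16, 13 and 19 in uLN. Each mLN library held several times the reads of any uLN library, at 4.81 ± 0.520 CPM in mLN and 0.914 ± 0.179 in uLN (SD, n = 3 each). The log2 change of 2.39 ± 0.23 (SE, adjusted p = 6.00e-06 in the edgeR test) was the largest rise of the list. Anln has gene ID 68743 and spans bases 22331214 to 22389211 of chromosome 9. Prc1, which bundles microtubules of the central spindle, had 136, 156 and 168 reads in mLN and 69, 79 and 74 in uLN, a 2.03-fold rise. The other 3 genes of the group were not called. Kif23, the motor of the centralspindlin complex, averaged 44.6 ± 4.23 CPM in mLN and 49.0 ± 2.05 in uLN (SD, n = 3 each), and was called lower only without mLN replicate 3 (adjusted p = 0.00613 in the edgeR test). Ect2, which switches on RhoA at the cell equator, averaged 8.81 ± 1.09 CPM in mLN and 8.92 ± 0.251 in uLN (SD, n = 3 each). Kif20a, a motor of the midzone, had 34, 13 and 12 reads in mLN and 25, 26 and 14 in uLN, with the high mLN value in replicate 1.

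Among genes of chromosome structure 5 of 7 rose and 1 fell. Top2a, which untangles sister DNA, had 243, 280 and 350 reads in mLN and 90, 86 and 84 in uLN. The groups were far apart, at 16.3 ± 3.45 CPM in mLN and 4.95 ± 0.185 in uLN (SD, n = 3 each), a log2 change of 1.72 ± 0.15 (SE, adjusted p = 4.26e-06 in the edgeR test). Top2a has gene ID 21973 and spans bases 98992947 to 99024199 of chromosome 11. Mki67, which coats mitotic chromosomes, had 103, 116 and 120 reads in mLN and 86, 92 and 95 in uLN. Its groups did not overlap, but the log2 change of 0.28 ± 0.14 (SE) was not called (adjusted p = 0.0934 in the edgeR test).

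Condensin I holds 5 subunits, and 4 of them rose while the other fell. Smc2, an ATPase subunit, had 187, 195 and 176 reads in mLN and 508, 486 and 488 in uLN. The libraries of each group were close together, at 10.4 ± 0.392 CPM in mLN and 28.2 ± 0.857 in uLN (SD, n = 3 each), a log2 change of -1.44 ± 0.07 (SE, adjusted p = 7.50e-08 in the edgeR test). Smc2 has gene ID 14211 and spans bases 52439221 to 52488365 of chromosome 4. Smc4, with which Smc2 forms the ATPase pair, was the most abundant gene of the list and rose 1.35-fold, with 147 ± 20.1 CPM in mLN and 109 ± 0.445 in uLN (SD, n = 3 each). Smc4 was highest in mLN replicate 3 (170 CPM, against 136 in each of the other mLN libraries). Its log2 change ran from 0.32 to 0.49 when 1 library at a time was left out. The Smc4 call was lost with the biological coefficient of variation set to 0.2. Ncapg, a HEAT-repeat subunit, had 33, 39 and 39 reads in mLN and 5, 12 and 18 in uLN, a 3.09-fold rise. Ncaph, the kleisin that closes the ring, had 78, 95 and 78 reads in mLN and 20, 31 and 35 in uLN, a 2.85-fold rise. Ncapd2, the other HEAT-repeat subunit, had 772, 814 and 836 reads in mLN and 537, 501 and 539 in uLN, a 1.51-fold rise.

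**Figure D5:**
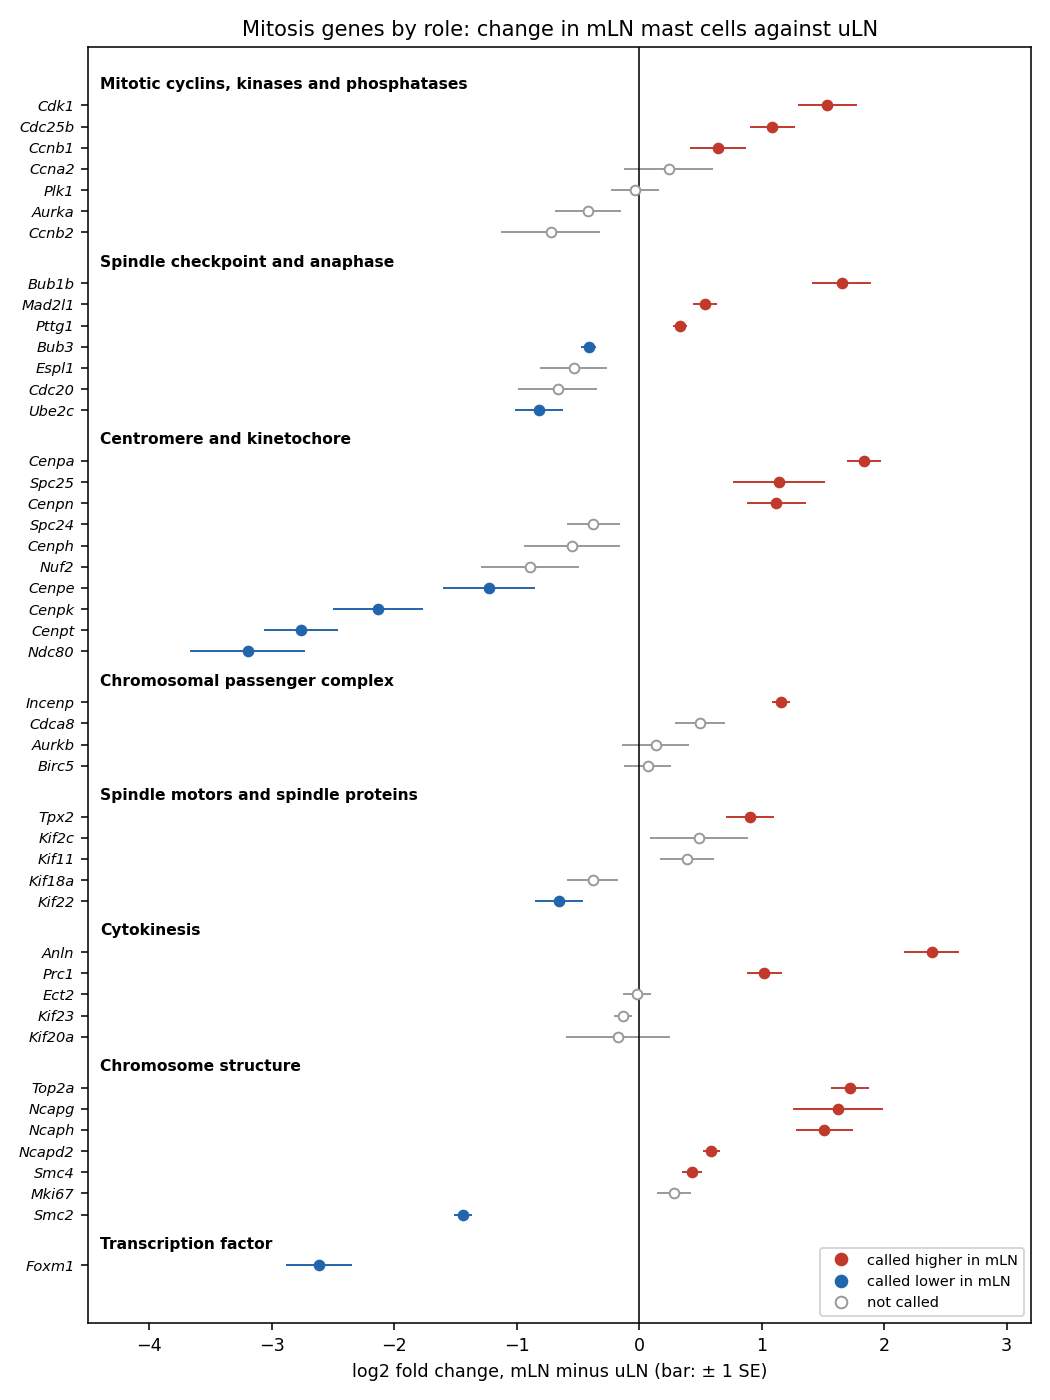
The log2 fold change of mLN minus uLN with ± 1 SE is drawn for the 46 tested mitosis genes, grouped by role, with filled points for called genes. Changes run from -3.20 for Ndc80 to 2.39 for Anln, and centromere, checkpoint, spindle and chromosome structure groups hold genes of both directions.

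Summed over all 53 genes, mLN libraries held 537 to 616 CPM and uLN libraries 458 to 476. Smc4 with its mean of 128 CPM over all libraries, Bub3 and other abundant genes make up much of that sum. Within mLN, replicate 3 was highest for 20 of the 46 tested genes and lowest for 19, close to its shares over all tested genes (39.4% highest and 42.1% lowest). Replicate 1, in which epithelial and stromal reads were concentrated, was the highest mLN library for 10 of the 46, or 21.7%, against 27.8% of all tested genes. That replicate was the lowest mLN library for 19, or 41.3%, against 30.8% of all tested genes.

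Some of these genes share exon sequence with a neighbour on the opposite strand, and no source used here gives the strand setting of the counting. The overlap came to at least 10% of exon length for 6 of the 53 genes, which are Ccna2, Ube2c, Kif4, Kif20a, Prc1 and Ncapg. Lcorl, the neighbour of Ncapg, rose by 0.60 on the log2 scale from far more reads, 480, 532 and 537 in mLN and 344, 318 and 338 in uLN. Rccd1, the neighbour of Prc1, rose by 0.37. Tnnc2, the neighbour of Ube2c, had 0 to 12 reads. For 15 of the 53 genes some deposited values were not whole. Without strand, reads of such a pair cannot be told apart, so the values of these 6 genes are uncertain, and the part of the neighbours in them was not tested.

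Other genes of mitosis were taken from a list of 133, of which 132 were in the table and 121 were tested. Of these 35 rose and 38 fell, or 60.3% together, against 67.4% of all tested genes. Their median log2 change was -0.08. Changes of at least 1.5-fold were called for 14 that rose and 16 that fell, out of the 121 tested. Of all tested genes 17.1% were called higher and 15.3% lower by at least 1.5-fold. Among well-covered genes the largest rises were in Kifc1, a minus-end motor of the spindle (2.78-fold), Ckap2l, a spindle protein (2.22-fold), the phosphatase Cdc25a (2.21-fold) and Plk4, the kinase of centriole duplication (2.01-fold). Lin9 of MuvB (1.73-fold), the kinetochore protein Zwint (1.69-fold), the pocket protein Rbl1 (1.68-fold) and Wee1, which inhibits Cdk1 (1.61-fold), followed. The largest falls were in Haus5 of the augmin complex (2.27-fold), the checkpoint protein Mad1l1 (1.89-fold), Anapc13 and Anapc5 of the anaphase-promoting complex (1.80-fold and 1.72-fold) and the cohesin subunit Stag1 (1.70-fold). Mis18a, which licenses Cenpa loading (1.68-fold), Anapc16 (1.55-fold) and the motor Kif20b (1.55-fold) also fell.

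By complex, 3 of 17 tested genes of the anaphase-promoting complex and its regulators rose and 8 fell. Among other kinetochore and centromere genes 8 of 25 rose and 8 fell, and among spindle and centrosome genes 7 of 31 rose and 9 fell. Cohesin and its regulators had 2 of 12 higher and 4 lower. Of the 3 tested subunits that condensin II does not share with condensin I, 2 rose and 0 fell, by small amounts, with a median log2 change of 0.19. Of MuvB, B-Myb and DREAM genes 4 of 10 rose and 3 fell. The shares called among the groups named here ran from 50% (cohesin) to 70% (MuvB, B-Myb and DREAM), against 67.4% of all tested genes.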

How the data were processed

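RNA was sequenced from mast cells of mouse lymph nodes, 3 mLN and 3 uLN libraries, grouped by title. Per the labels' protocols, total RNA (Qiagen RNeasy) went into BGI DNBSEQ mRNA libraries. The submitters' processing notes list TopHat, cutadapt and FastQC and the build GRCm38, with no versions and no counting tool. The deposited values are estimated counts per gene that the authors left unscaled, of which 32.2% to 32.8% per library were not whole. They were rounded, and 1 row with no gene was left out. Totals were 17643916 to 17799420.

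Tests used edgeR 4.0.16 in R 4.3.3 with TMM scaling and the default expression filter, which kept 12706 of 17890 genes and 46 of the 53 members. Log2 changes are mLN minus uLN, and their SE is the size over the square root of F. No depth interval is given, since no source used here mentions molecular identifiers, and the spread between replicates is used instead. DESeq2 1.42.0, limma 3.58.1 (voom), other scalings, no filter, a fixed dispersion, a replicate block and leaving out each library were tried, and the fit was tested on simulated data. Exon lengths and overlaps came from GENCODE M21 (GRCm38), coordinates and promoters from RefSeq GRCm38.p6.

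The members and gene lists were chosen with earlier results of these data known. Library values are given for members called with at least a 1.5-fold change and for Cdk1, Ccnb1, Plk1, Aurkb, Cenpa, Ndc80, Birc5, Top2a, Mki67 and Foxm1. They are also given for some members that were not called or not tested (Ccnb2, Cdc25c, Cdc20, Nuf2, Spc24, Cdca8, Kif20a and Cenpf), chosen after values were seen. Of other mitosis genes, up to 8 rises and 8 falls with a mean of at least 5 CPM are named.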

Additional observations from a re-analysis of the deposited data

How the results depend on the processing

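Of the 27 member calls, 27 were kept under 3 other scalings, without the expression filter, with limma-voom, with the replicate block and without mLN replicate 1, 25 in DESeq2, and 24 to 26 without any other single library. Leaving out 1 library at a time gave 16 to 19 members higher and 8 to 10 lower. With the biological coefficient of variation set to 0.2, 21 were kept, and Bub3, Ccnb1, Kif22, Mad2l1, Pttg1 and Smc4 were lost (adjusted p from 0.0725 to 0.300). That setting called 12 other mitosis genes higher and 16 lower, and it had 2145 of all tested genes called higher and 1913 of all tested genes called lower, because it assumes more spread. The sign of Ect2 (not called) turned with library totals alone, at 0.0069. Leaving out 1 library at a time also turned the sign of 5 genes that were not called, with log2 changes from -0.00059 to 0.22 for Aurkb, -0.80 to 0.071 for Kif20a, -0.11 to 0.055 for Ect2, -0.16 to 0.086 for Plk1 and -0.012 to 0.15 for Birc5. The Kif20a value of -0.80 was without mLN replicate 1. The replicate numbers are shared by the groups, and no label says that they pair the libraries. Deviations of same-numbered libraries correlated at 0.02, -0.15 and -0.01, and no mLN library correlated best with its own number. With 3 libraries per group such values cannot exclude a shared animal or day. With the replicate block 18 members were higher and 9 lower, with 4122 of all tested genes called higher and 4263 of all tested genes called lower. Without the filter the 7 untested members were not called (adjusted p from 0.0558 for Cenpf to 0.925 for Cenpi). Depth limits the members with under 20 reads per library.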

Other observations

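Genes that load Cenpa, and those that link it to the outer kinetochore, were looked at after their values were seen. Hjurp, the chaperone that deposits Cenpa, had 2570, 2521 and 3436 reads in mLN and 1785, 1759 and 1799 in uLN, a 1.57-fold rise. Oip5, the Mis18 beta protein, had 46, 60 and 76 reads in mLN and 7, 23 and 16 in uLN, a 3.87-fold rise, while its partner Mis18a fell 1.68-fold. Dsn1, a subunit of the Mis12 complex that carries the Ndc80 complex, had 25, 29 and 17 reads in mLN and 126, 133 and 139 in uLN, a 5.70-fold fall. The other subunits of that complex moved less, with Mis12 higher by 1.20-fold, Pmf1 lower by 1.35-fold and Nsl1 not called. Zwilch, which brings checkpoint proteins and dynein to kinetochores, had 5, 16 and 11 reads in mLN and 54, 46 and 52 in uLN, a 4.80-fold fall. Knl1, the scaffold for checkpoint proteins, had 21, 29 and 26 reads in mLN and 24, 27 and 25 in uLN, and was not called.

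In a list of 37 DNA replication genes, 8 rose and 20 fell, with a median log2 change of -0.34, beside 18 and 9 of the 46 mitosis genes. Together 75.7% of the replication genes were called, against 67.4% of all tested genes, of which 33.2% rose and 34.2% fell. Mcm5 of the replicative helicase had 47, 50 and 28 reads in mLN and 224, 214 and 181 in uLN, a 5.05-fold fall. Pcna, the sliding clamp, averaged 52.9 ± 3.80 CPM in mLN and 98.2 ± 6.88 in uLN (SD, n = 3 each). Mcm2, of the same helicase as Mcm5, was not called (log2 change of 0.14). Whether the mitosis and replication lists differ was not tested.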
